A study of Mus musculus with 12 samples.

Results

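The levels of genes that respond to interleukin-4 (IL-4) and to macrophage colony-stimulating factor (M-CSF) were compared between myeloid-sorted kidney cells of wild-type (WT) mice and bone marrow derived macrophages polarized to the M2 state. The comparison took the 3 arrays titled as WT renal macrophages and the 3 arrays titled as M2 macrophages, which are 6 of the 12 arrays of the series. The WT mice were of the B6C3Fe a/a-Csf1op/J strain and carried the wild-type form of the Csf1 locus. They had received 80 mg/kg glyoxylate, a precursor of oxalate used to raise kidney crystals, for 6 days before their kidneys were taken and cells were separated on autoMACS columns by CD11b and CD11c. The M2 cells were cultured with IL-4 and M-CSF; the labels give the same strain and bone marrow as their tissue, but not their Csf1 genotype or time in culture. The other arrays, 3 of kidney cells from op/op mice of that strain, treated and sorted likewise, and 3 of M1 macrophages cultured with LPS and GM-CSF, entered the model for its estimate of spread, and their levels are given where they help to read a gene. The series set the bone marrow cells beside the renal cells as references for polarization. The labels do not say whether arrays of a group came from separate animals or cultures. A p-value here therefore reflects only how far arrays of the same group differ, pooled over the 4 groups, and that difference may be technical.

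M-CSF is the growth factor that keeps most macrophages alive, and it acts through the receptor tyrosine kinase Csf1r, which it shares with interleukin-34. IL-4 binds a receptor built around Il4ra, and Janus kinases then phosphorylate the transcription factor Stat6, which switches on the genes that define alternatively activated, or M2, macrophages in the mouse. The op mutation removes functional M-CSF, and the kidney has its own resident macrophages besides those derived from blood monocytes.

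Dimers of Stat6 bind palindromes made of TTC and GAA with 4 bases of any kind between them. The proximal promoters of the IL-4 targets were therefore searched for this motif. RefSeq (GRCm38.p6) windows from 250 bases before to 50 bases after a transcription start matched 21 of the 35 listed IL-4 targets. The motif, which reads the same on both strands, was present in a window of 6 of these 21 genes (28.6%), and in 8.01% of all 27025 genes with windows of this length. Of the 6 genes, Retnla, Tfec, Cd36 and Pdcd1lg2 were lower in the WT kidney cells than in M2 cells, Ccl17 was higher and Il1rn did not pass the test. A match is a description of these letters and not a measured binding site. The windows of other genes described below, such as Chil3, Mrc1 and Pparg, did not hold the motif, and Arg1 was not matched. The windows that follow were picked from the genes with a match and belong to 4 of those 6, with the motif in capitals. It starts at -145 from the start of Retnla (chr16:48842359-48842658, plus strand), at -200 for Tfec (chr6:16898392-16898691, minus strand), at 21 for Cd36 (chr5:17835847-17836146, minus strand) and at -154 for Ccl17 (chr8:94810203-94810502, plus strand).

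Retnla: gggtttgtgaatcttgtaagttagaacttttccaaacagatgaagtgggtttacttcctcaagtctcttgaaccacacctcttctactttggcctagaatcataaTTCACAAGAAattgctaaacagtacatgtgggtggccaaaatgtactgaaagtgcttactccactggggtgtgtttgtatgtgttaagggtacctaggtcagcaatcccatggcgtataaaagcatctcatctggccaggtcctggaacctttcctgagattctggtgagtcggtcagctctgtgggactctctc
Tfec: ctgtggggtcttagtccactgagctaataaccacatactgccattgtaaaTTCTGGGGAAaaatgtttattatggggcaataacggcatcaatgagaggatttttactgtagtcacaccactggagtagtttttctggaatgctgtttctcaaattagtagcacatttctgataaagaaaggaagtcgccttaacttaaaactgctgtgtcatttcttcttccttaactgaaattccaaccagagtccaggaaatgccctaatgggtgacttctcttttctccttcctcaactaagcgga
Cd36: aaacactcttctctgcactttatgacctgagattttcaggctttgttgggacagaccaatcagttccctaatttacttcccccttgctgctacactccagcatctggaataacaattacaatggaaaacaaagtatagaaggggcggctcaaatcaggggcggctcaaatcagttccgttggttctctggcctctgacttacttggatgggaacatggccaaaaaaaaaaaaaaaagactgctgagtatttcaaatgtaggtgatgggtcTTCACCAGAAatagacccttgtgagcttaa
Ccl17: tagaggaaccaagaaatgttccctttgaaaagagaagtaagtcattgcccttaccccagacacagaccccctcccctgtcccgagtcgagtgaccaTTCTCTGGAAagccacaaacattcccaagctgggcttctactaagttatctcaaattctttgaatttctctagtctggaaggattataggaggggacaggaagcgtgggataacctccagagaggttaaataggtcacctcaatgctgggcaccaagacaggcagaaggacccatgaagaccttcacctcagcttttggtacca

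Levels are given as log2 of the array signal minus the 75th percentile of that array, so that 0 is the 75th percentile and a step of 1 is a doubling; the brightest probe stands for a gene. A gene was tested if the scanner software called its probe well above background on all arrays of the WT group or of the M2 group, and differences are WT kidney minus M2, with the standard error (SE) of the limma model. Of 34749 genes, 27112 were tested and 17572 (64.8% of those tested) passed an adjusted p of 0.05. In WT kidney cells 9953 (36.7% of those tested) were higher and 7619 (28.1%) lower. The median difference over all tested genes was 0.20. The 3 WT arrays varied more among themselves, with a median SD over genes of 0.37, than the M2 (0.124), M1 (0.153) or op/op arrays (0.252). The model takes 1 spread per gene over all 4 groups, so it may understate the spread of the WT arrays. Fitted to the WT and M2 arrays alone, 8766 genes were higher and 7077 lower. Between 76.1% and 79.3% of probes were well above background on the WT arrays, and between 64.3% and 65.0% on the M2 arrays. The M2 arrays were all on 1 slide and in its second row, and the WT arrays were on the other slides and in the first row, so that slide, array row and cell source cannot be told apart in any difference below. With the slide as a random block, Stat6, Alox15, Ptgs1, Il34 and Mertk, out of the IL-4 and M-CSF genes described below, no longer passed.

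**Figure D1:**
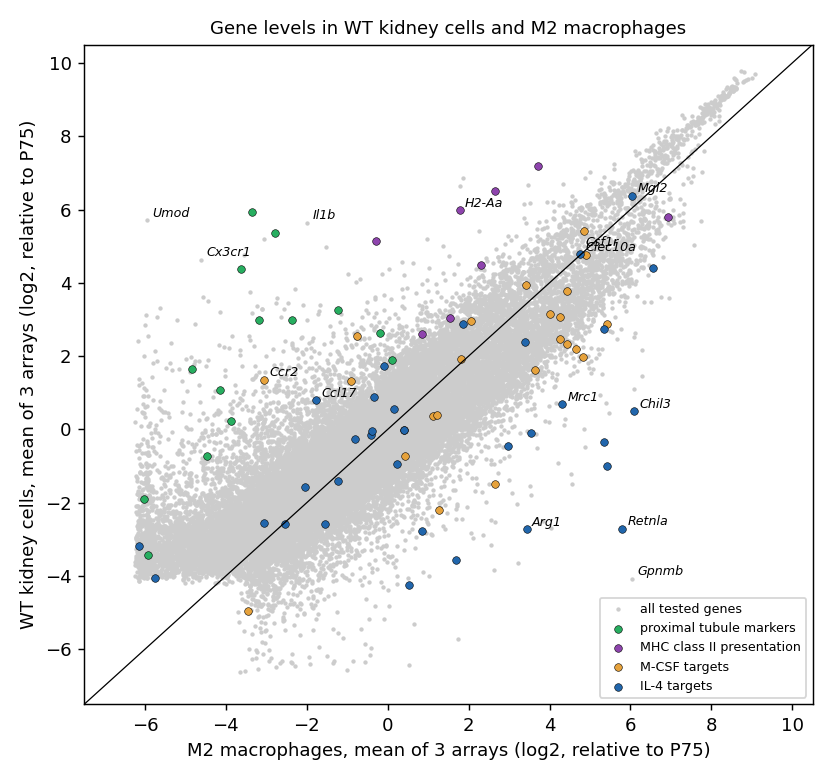
Mean level of each tested gene in the M2 macrophages (horizontal, log2 relative to the 75th percentile, 3 arrays) and the WT kidney cells (vertical, same unit, 3 arrays), with the line of equal levels. Clec10a, Mgl2 and Csf1r lie near the line, Retnla, Arg1 and Chil3 far below it, and the proximal tubule markers (green) and MHC class II genes other than Ctss (purple) above it.

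The labelled cell types were set against their markers. Of the 12 macrophage markers, 11 were well above background on all WT arrays, among them Csf1r, Adgre1 (F4/80), Cd68, Aif1 and Cx3cr1, and Timd4 was so on 1 array. Of the 11 tested, 7 (63.6%, beside 28.1% of all genes) were lower in WT kidney cells than in M2 cells. Another 3, Cx3cr1, Aif1 and Fcgr1, were higher (27.3%, beside 36.7% of all genes). Csf1r did not pass, and the median difference of the 11 was -1.84. The summed signal of the 12 was 97.5 to 159 times the 75th percentile in WT kidney cells and 187 to 196 times in M2 cells. The WT kidney cells also held RNA of kidney cells that do not carry the sorted antigens. All 14 proximal tubule markers were higher in WT kidney cells than in M2 cells, with a summed signal of 130 to 266 against 3.02 to 3.43. So were all 10 tested markers of the distal nephron and collecting duct (46.3 to 111 against 2.07 to 2.12). The same held for 11 of 12 endothelial markers (31.9 to 49.8 against 12.97 to 14.0) and all 5 podocyte markers (16.5 to 24.8 against 2.18 to 2.43). Among all tested genes 36.7% were higher. No M2 array was well above background for 5 of 14 proximal tubule, 6 of 12 distal nephron, 3 of 12 endothelial and 2 of 5 podocyte markers. The same held for 9028 of all 34749 genes, and for 4 of 7 NK cell and 4 of 12 dendritic cell markers. In bulk RNA, fewer cells of a type and less RNA per cell cannot be told apart, and the part of these other cells in the differences below was not tested.

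Markers of other blood cells differed from list to list. Of the 8 tested T cell markers 3 (37.5%, beside 36.7% of all genes) were higher in WT kidney cells and the rest did not pass, and Cd3g was well above background on none of the 6 arrays. Of 9 B cell markers 6 (66.7%, beside 36.7% of all genes) were higher and 1 was lower. Of 5 tested NK cell markers 4 (80%) were higher and none was lower. Of 12 dendritic cell markers 8 (66.7%) were higher, and 2, Batf3 and Bst2 (both -1.27), were lower. The higher ones included Clec9a (at least 13.8-fold) and Cd209a (at least 20.7-fold), surface lectins of dendritic cells. Such bounds are given where no array of the dimmer group was well above background; the mean of the brighter group is then set against the mean, over arrays, of the lowest signal well above background or the probe's own signal, whichever was higher. The M2 cultures carried RNA of other lineages as well. Of 13 neutrophil markers, 8 (61.5%, beside 28.1% of all genes) were lower in WT kidney cells, and 2, Elane (1.15) and Csf3r (0.58), were higher. The lower ones included the granule genes Ngp (-6.35, SE 0.34) and Ltf (-6.46, SE 0.44). The summed neutrophil signal was 255 to 311 in WT, 261 to 294 in M2 and 266 to 323 in M1 cells. Of 8 tested fibroblast and mural markers 5 (62.5%) were lower, with Col1a1 33.3-fold and Col1a2 32.4-fold lower. The pericyte genes Pdgfrb (2.14, SE 0.26) and Rgs5 (at least 51.8-fold) were higher. The list summed to 12.3 to 20.7 in WT against 103 to 123 in M2 cells. In M1 cells it summed to 104 to 151, so the signal was not particular to the M2 cultures.

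**Figure D2:**
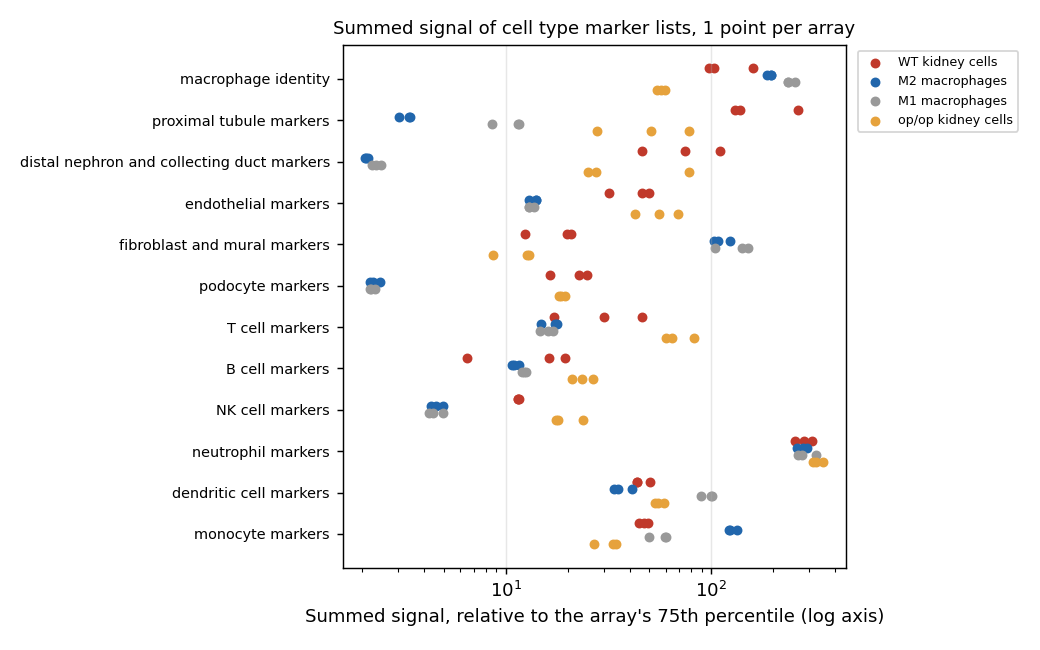
Summed signal of marker lists on each of the 12 arrays, as multiples of the 75th percentile of the array on a log axis. Proximal tubule markers sum to at least 130 on each WT kidney array and to at most 3.43 on each M2 array, and fibroblast and mural markers show the opposite order.

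The IL-4 receptor and its signalling chain were present in both cell sources. All 9 listed genes were well above background on all 6 arrays; 4 were higher in WT kidney cells, 2 were lower and 3 did not pass, so that the share called, 66.7%, was near the 64.8% of all genes. Il4ra, the receptor chain that binds IL-4, had levels of 5.59, 5.46 and 5.63 in WT replicates 1, 2 and 4 and of 4.88, 4.67 and 4.67 in M2 replicates 2, 3 and 4. The groups did not overlap, and the difference was 0.82 (SE 0.15, limma adjusted p = 0.000532), but a second Il4ra probe gave -0.03. Il13ra1, which pairs with Il4ra in the receptor for both IL-4 and IL-13, was 5.87-fold higher, at 1.19, 0.91 and 0.50 against -1.72, -1.68 and -1.67. Irs2, an adaptor that docks to the activated receptor, was 2.01-fold higher and Ptpn6, a phosphatase that dampens cytokine signals, 1.87-fold higher. Jak1, a kinase bound to Il4ra, was lower by 2.32-fold. Stat6 measured 1.63, 1.95 and 0.77 against 2.23, 2.32 and 2.33, a difference of -0.85 (SE 0.31, adjusted p = 0.0321), which did not pass without WT replicate 4 (-0.51, adjusted p = 0.139). Il2rg, the common gamma chain (difference 0.03, 95% interval -0.42 to 0.48), Jak3 (0.05, -0.29 to 0.38) and Tyk2 (0.03, -0.68 to 0.75) did not pass.

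The IL-4 target genes did not move as one group. Of 35 listed genes Ear11 was not matched on the array and Cdh1 was not tested, being well above background on 2 WT arrays and no M2 array. Of the 33 tested, 22 passed the test, a share of 66.7% beside 64.8% of all genes, 16 of them lower and 6 higher in WT kidney cells, and 11 did not pass. The lower calls made up 48.5% of the tested targets beside 28.1% of all genes, and the median difference was -0.42 beside 0.20. Among targets with arrays well above background in both groups, differences ran from -8.52 for Retnla to 2.56 for Ccl17. The ranges of the WT and M2 arrays did not overlap for 24 of the 33, beside 68.7% of all genes. Of the 33, 31 were well above background on all WT arrays. Summed over the list, the signal was 151 to 212 times the 75th percentile in WT kidney cells, 507 to 530 in M2, 207 to 243 in M1 and 124 to 150 in op/op kidney cells.

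Among the secreted lectins and chemokines, Retnla (RELM-alpha, also known as Fizz1), a classical mark of IL-4 exposure, differed most. Its levels were -3.93, -0.73 and -3.49 in WT replicates 1, 2 and 4 and 5.80, 5.90 and 5.71 in the M2 replicates. WT replicate 2 stood above the other two, 2 of the 3 WT arrays were well above background, and the groups were far from overlapping. The difference was -8.52 (SE 0.64, adjusted p = 1.29e-06), or -9.52 without WT replicate 2 and -7.91 without replicate 1; the M1 mean was -5.36, not well above background. Chil3 (Ym1), a chitinase-like lectin, measured 0.43, 0.28 and 0.76 in WT cells against 6.00, 5.92 and 6.36 in M2 cells. It was 48.6-fold lower (adjusted p = 1.87e-08), and its close copy Chil4 (Ym2) was 26.9-fold lower with 2 WT arrays well above background; cross-hybridization between these near-identical copies was not tested. Chil3 is also a product of Ly6C-high monocytes. Ccl24, an eosinophil attractant, was 12.4-fold lower (-2.26, -2.53 and -3.54 against 0.55, 0.76 and 1.25).

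The ligands of Ccr4 went the other way. Ccl17, which attracts T helper 2 cells, measured -0.02, 1.30 and 1.10 in WT kidney cells and -1.93, -1.81 and -1.54 in M2 cells. All WT values lay above all M2 values, and the difference was 2.56 (SE 0.29, adjusted p = 2.29e-05), with a mean of -0.67 in M1 cells and of -1.55 in op/op kidney cells. Ccl22 was well above background on all WT arrays at -3.67, -3.04 and -2.85 and on no M2 array, which makes it at least 1.64-fold higher. The fitted difference was 2.95, and 0.25 (adjusted p = 0.123) when all signals below the 10th percentile of those well above background were raised to it. Ccl17 and Ccl22 are also known products of dendritic cells, whose markers summed to 43.3 to 50.04 in WT and 33.6 to 41.1 in M2 cells; their part in these differences was not tested. Il1rn, the IL-1 receptor antagonist, measured 0.05, 1.79 and -0.16 against -0.04, 0.06 and 0.45 and did not pass (0.41, 95% interval -0.47 to 1.29), while the M1 mean was 5.72.

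Of the IL-4 induced enzymes, 4 of 6 (66.7%, beside 28.1% of all genes) were lower in WT kidney cells. Arginase 1 (Arg1, probe at chr10:24636194-24636253 in mm9), which diverts arginine from nitric oxide synthesis, measured -1.96, -2.05 and -4.16 in WT replicates 1, 2 and 4 and 3.36, 3.59 and 3.36 in the M2 replicates. Replicate 4 was the lowest, and no WT value came near an M2 value. The difference was -6.16 (SE 0.45, adjusted p = 1.06e-06), or -5.44 without WT replicate 4. Arg1 was well above background on all 3 WT arrays and on no op/op array. The lowest signal well above background was higher on the op/op arrays (-3.50 to -3.15) than on the WT arrays (-4.61 to -4.06). The Arg1 level of WT replicate 4 lies below that of the op/op arrays, so detection is not alike in the 2 groups. Tgm2, a transglutaminase that is a mark of M2 cells in mouse and human, was 6.10-fold lower, and Ptgs1, the constitutive cyclooxygenase, 2.29-fold lower. Mmp12, the macrophage elastase, was 4.48-fold lower by its brighter probe, while its other probe gave 0.35. Alox15, the 12/15-lipoxygenase, was called higher (1.68, SE 0.61, adjusted p = 0.0305), but no M2 array was well above background and the call ended with signals floored in the same way. Ch25h, the cholesterol 25-hydroxylase, overlapped between the groups (-0.04, 95% interval -0.95 to 0.88).

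Of the 7 tested surface proteins, 4 (57.1%, beside 28.1% of all genes) were lower in WT kidney cells and 1 was higher. The galactose lectins Clec10a and Mgl2 did not pass. The galactose-binding lectin Clec10a (Mgl1, CD301a) measured 4.69, 4.65 and 4.99 in WT kidney cells and 4.86, 4.65 and 4.75 in M2 cells. The groups overlapped, with a difference of 0.02 (95% interval -0.41 to 0.45), against a mean of 2.44 in M1 cells. Its neighbour Mgl2 (CD301b) measured 6.46, 6.47 and 6.17 against 6.02, 6.06 and 6.02. It did not pass (0.33, 95% interval -0.02 to 0.69, adjusted p = 0.0863), and its M1 mean of 5.88 was also close. By contrast Mrc1 (CD206), the mannose receptor, measured 0.62, 1.71 and -0.27 against 4.36, 4.34 and 4.25. It was 12.4-fold lower (adjusted p = 1.65e-05), with replicate 2 highest and replicate 4 lowest among the WT arrays. Cd36, a scavenger receptor for oxidized lipids, was lower by -5.70 (SE 0.44), at 0.07, 0.60 and -1.72 against 5.42, 5.30 and 5.34, or -5.02 without WT replicate 4. Slc7a2, the transporter that supplies arginase with arginine, was 37.9-fold lower, and Pdcd1lg2 (PD-L2), an inhibitory ligand, 2.06-fold lower. Flt1, a VEGF receptor that endothelial cells also carry, was 2.33-fold higher, beside the higher endothelial marker signal of the WT arrays, whose part in this was not tested.

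Among nuclear and signal regulators, 3 were lower, 2 higher and 5 did not pass. The share lower, 30%, was near the 28.1% of all genes, and the share called, 50%, was below their 64.8%. Pparg, the lipid-sensing nuclear receptor that sustains the M2 state, measured -0.12, 0.39 and -0.60 against 3.52, 3.53 and 3.59 and was 12.6-fold lower (adjusted p = 4.88e-07). Tfec, a transcription factor induced by IL-4 in macrophages, was 10.6-fold lower, at -0.11, -0.43 and -0.79 against 3.06, 2.93 and 2.92. Egr2 was 2.01-fold lower. These 3 factors were separated between the groups on every array, as were 68.7% of all genes. Klf4, which cooperates with Stat6, was 2.02-fold higher, and Kdm6b, a histone H3 lysine 27 demethylase, 3.55-fold higher. Irf4, which acts downstream of that demethylase, measured -1.26, -0.68 and -2.25 against -1.25, -1.42 and -1.03 and did not pass (-0.16, 95% interval -0.88 to 0.55). Its M1 mean was -4.36, with 1 M1 array well above background. The feedback inhibitors Cish (0.24, -0.17 to 0.65) and Socs1 (0.48, -0.15 to 1.10), the coactivator Ppargc1b (0.51, -0.16 to 1.18) and Myc (-0.42, -0.98 to 0.13) did not pass either. Of the cell fusion genes, Atp6v0d2, a proton pump subunit needed for fusion, was 84.4-fold lower, while Dcstamp (0.34, 95% interval -0.77 to 1.45) and Ocstamp (0.55, -0.02 to 1.11), the transmembrane proteins of the fusion step, did not pass.

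**Figure D3:**
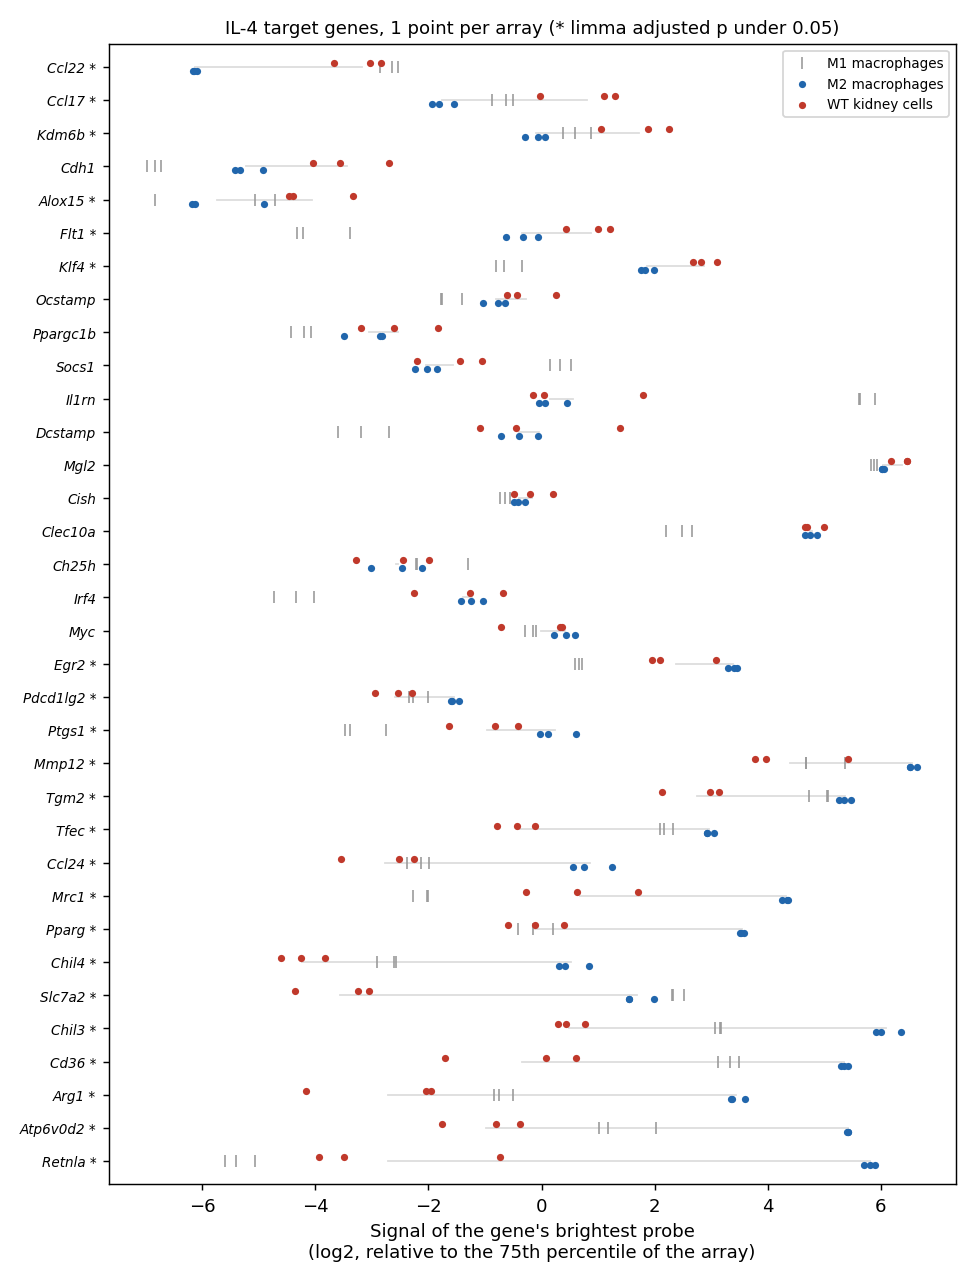
Level of the 34 IL-4 targets on the array (log2 relative to the 75th percentile) on each WT kidney (red), M2 (blue) and M1 (grey) array, ordered by the difference of WT and M2 means. Retnla, Atp6v0d2 and Arg1 have the widest gaps, and the red and blue points of Clec10a, Cish and Irf4 overlap.

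The M-CSF receptor was read differently by different probes. The brightest Csf1r probe measured 4.80, 4.85 and 5.06 in WT kidney cells and 4.78, 4.82 and 4.70 in M2 cells, a difference of 0.14 (95% interval -0.18 to 0.45) that did not pass. Its 2 dimmer probes gave -1.03 and -1.66, and the mean of all 3 was -0.85 (adjusted p = 0.00134). Of the ligands, Csf1, which encodes M-CSF itself, was lower in WT kidney cells at -0.18, -0.14 and -0.00 against 3.15, 3.32 and 3.32, a 10.4-fold difference (adjusted p = 3.62e-07) that both other probes gave in the same direction (-2.32 and -2.19). Il34, the second ligand, was 1.97-fold higher and did not pass without WT replicate 1 (adjusted p = 0.0517). Of the signalling proteins, the adaptors Tyrobp (DAP12, 2.24-fold) and Grb2 (2.60-fold), the ubiquitin ligase Cbl (3.33-fold) and the lineage factor Spi1 (PU.1, 2.40-fold) were lower. Plcg2 did not pass (-0.17, -0.58 to 0.24). Mitf did not pass by its brightest probe (0.66, -0.20 to 1.52) and had -2.95 by the other, with -1.14 as their mean. Thus 1 of the 9 listed genes was higher, 5 (55.6%, beside 28.1% of all genes) were lower and 3 did not pass.

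Of the 25 M-CSF targets, 24 were tested, and Lyve1, a hyaluronan receptor of perivascular macrophages, was not, with 2 WT arrays and no M2 array well above background. Of the 24, 12 were lower in WT kidney cells, 3 (12.5% beside 36.7% of all genes) were higher and 9 did not pass; 28.1% of all genes were lower. The median difference was -0.84. Without WT replicate 4 the number higher was 6 in place of 3, and without replicate 1 it was 4. The summed macrophage signal was 97.5 in replicate 4 and 102.6 in replicate 1. Its part in these numbers was not tested. The summed signal of the list was 196, 269 and 109 in WT replicates 1, 2 and 4, a spread wider than the 299 to 307 of the M2 arrays. It was 60.7 to 68.3 in op/op kidney cells, which lack M-CSF. The summed signal of the macrophage markers was also lower in op/op (54.3 to 59.4) than in WT kidney cells (97.5 to 159). The parts of macrophage number and of M-CSF in this were not tested.

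Surface proteins included the largest differences in both directions. Ccr2, the chemokine receptor by which monocytes leave the marrow, measured 1.22, 1.83 and 0.99 in WT kidney cells against -3.30, -3.11 and -2.76 in M2 cells. It was 21.2-fold higher (adjusted p = 1.01e-07), with a mean of -4.51 in M1 and -0.18 in op/op kidney cells. Cd14, the LPS co-receptor, was higher by 3.31 (SE 0.41) at 2.94, 3.40 and 1.29 against -0.80, -0.90 and -0.58, or by 3.93 without WT replicate 4. Both genes are expressed by monocytes. Of 8 monocyte markers 5 (62.5%, beside 36.7% of all genes) were higher and 2, Chil3 and Fn1, lower. In the other direction, Slc40a1 (ferroportin), the iron exporter, measured -1.82, 0.19 and -2.87 against 2.74, 2.47 and 2.75. It differed by -4.15 (SE 0.60), or -5.00 without WT replicate 2 and -3.47 without replicate 4. Folr2, a folate receptor of resident macrophages, was lower at -2.46, -1.38 and -2.73 against 1.29, 1.14 and 1.40, a difference of -3.47 (SE 0.51). Trem2, the lipid receptor that signals through Tyrobp, was 5.84-fold lower, Adgre1 4.29-fold lower and Mertk, a receptor for dying cells, 2.21-fold lower. Cd163, the haemoglobin scavenger receptor, did not pass (-1.50, 95% interval -2.88 to -0.12, adjusted p = 0.0542, with 1 WT array well above background), nor did Stab1 (-0.77, -1.51 to -0.02, adjusted p = 0.0654).

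Of the secreted M-CSF targets, Igf1, a growth factor for tubular repair, was 7.27-fold lower at 1.20, 1.98 and 2.75 against 4.88, 4.81 and 4.83, and its 4 dimmer probes gave -3.88 to -7.44. The monocyte attractants Ccl2 (2.17, 3.66 and 1.56 against 4.18, 4.33 and 4.24) and Ccl7 (2.15, 3.56 and 0.91 against 4.61, 4.67 and 4.68) were 3.44-fold and 5.46-fold lower. In both, WT replicate 2 was highest; without it the differences were -2.38 and -3.13, and without WT replicate 4 that of Ccl7 was -1.80. Gas6, the ligand of Mertk, was 1.82-fold lower and did not pass under quantile normalization (adjusted p = 0.0639). F13a1, the transglutaminase of clot formation, was 4.65-fold higher, and its second probe gave 3.32. The complement genes C1qa (0.87, 95% interval -0.22 to 1.97), C1qb (-0.65, -1.49 to 0.19) and C1qc (-0.14, -0.76 to 0.49), which are made by resident macrophages, did not pass, and each was lowest in WT replicate 4. Without it C1qa was higher by 1.59 (adjusted p = 0.00165), Plau by 0.90 (adjusted p = 0.00454) and Selenop by 0.94 (adjusted p = 0.00114), where all arrays gave 0.56 (-0.04 to 1.16) for Plau, the urokinase, and 0.53 (-0.09 to 1.16) for Selenop, the selenium carrier. Ccl12 did not pass (0.11, -0.88 to 1.09). Of the regulators, Maf was 2.30-fold and the G1 cyclin Ccnd1 4.02-fold lower.

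**Figure D4:**
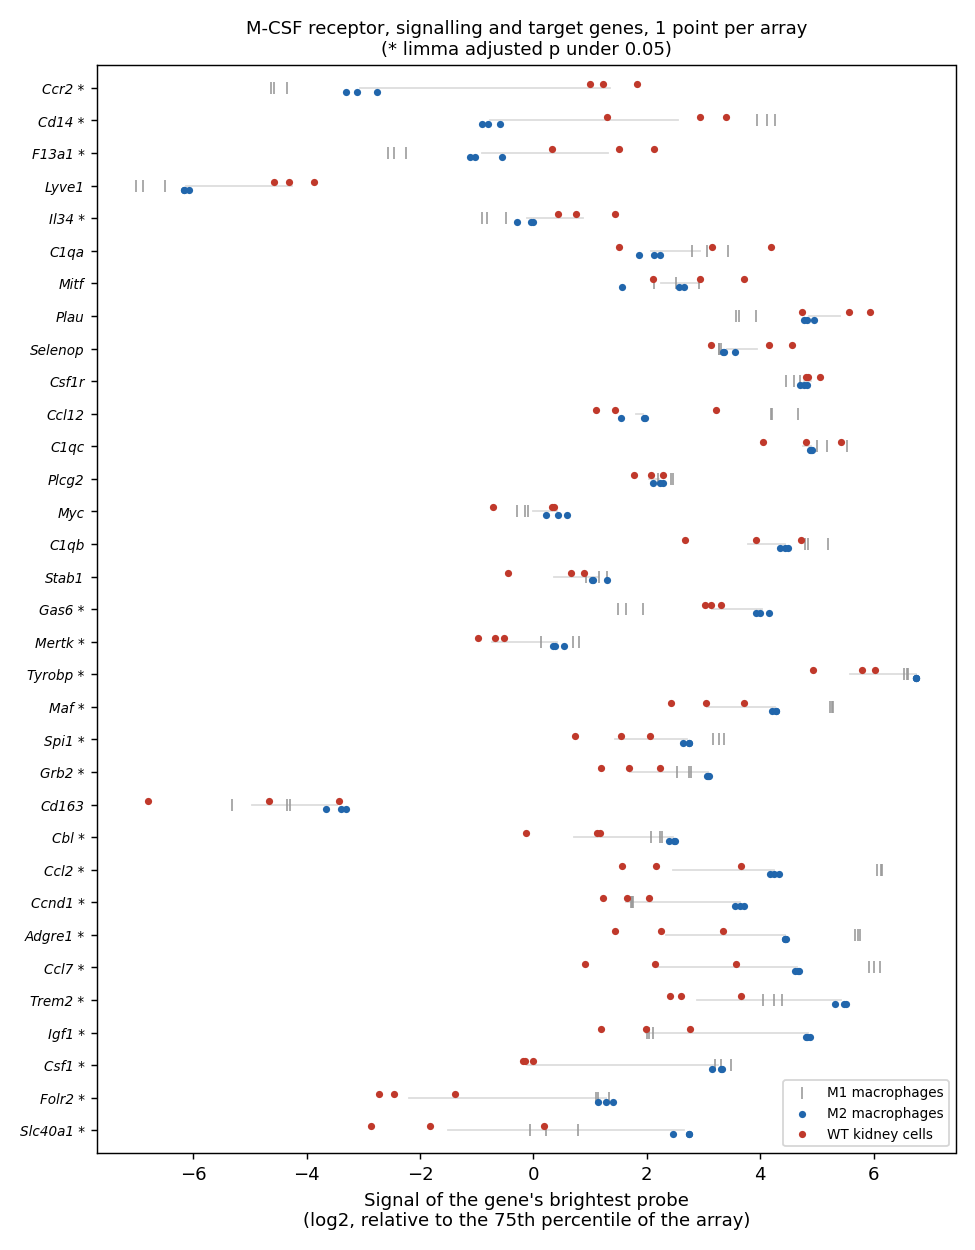
Level of M-CSF receptor, signalling and target genes (log2 relative to the 75th percentile) on each WT kidney (red), M2 (blue) and M1 (grey) array, ordered by the difference of WT and M2 means. The red points of most genes spread over 1 log2 unit or more, and Ccr2 and Slc40a1 lie at opposite ends.

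Genes of the opposite polarization were high in the WT kidney cells beside M2 cells. Of 20 listed genes that GM-CSF and LPS induce, the cytokine genes Il12a, Il12b and Il23a were not tested. They were well above background on no M2 array and not on all WT arrays. Of the 17 tested, 13 (76.5%) were higher beside 36.7% of all genes, and 2 were lower, with a median of 2.34. Il1b, the inflammasome cytokine, measured 5.80, 5.86 and 5.24 in WT kidney cells against -2.12, -2.21 and -1.66 in M2 cells. It was 198-fold higher (adjusted p = 4.49e-09), and the M1 mean was 6.07. Cxcl10, which attracts T cells and is induced by interferons, exceeded its M2 level by at least 16.8-fold, Socs3 29.4-fold, the costimulator Cd86 15.4-fold and Acod1, which makes itaconate, 14.8-fold. Nos2, which competes with Arg1 for arginine, was 1.88-fold lower and the scavenger receptor Marco 4.08-fold lower. The summed signal of the list was 73.1 to 110 in WT kidney, 19.0 to 20.3 in M2 and 1008 to 1144 in M1 cells. The WT sum lay between those of the cultures, as did that of op/op kidney cells (50.25 to 54.1). A sum follows its brightest members, and Il1b, near its M1 level, was the largest part of each WT sum.

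Antigen presentation genes also stood higher. Of the 8 MHC class II presentation genes, 7 (87.5%, beside 36.7% of all genes) were higher, with a median of 2.82. They were led by H2-Eb1 (43.0-fold) and H2-Aa (18.3-fold), the chains that carry the peptide, and by the invariant chain Cd74 (11.2-fold). The protease Ctss was 2.20-fold lower. Dendritic and B cells carry MHC class II as well; markers of both were partly higher, as given above, and their part in this was not tested. Of 15 interferon-stimulated genes 11 (73.3%, beside 36.7% of all genes) were higher and none was lower (median 1.54). Ifit3 was 10.5-fold and Oas2 3.65-fold higher. For 3 of the 15 no M2 array was well above background. Of 14 immediate early genes 13 (92.9%, beside 36.7% of all genes) were higher (median 2.71), with Egr1 29.1-fold and Nr4a1 15.3-fold higher. They encode short-lived transcription factors and their brakes, which cells switch on within minutes of a stimulus.

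Lipid-handling, lysosome and glycolysis genes were mostly lower in WT kidney cells, where 28.1% of all genes were lower. All 10 genes of a list of osteoclast-like and lipid-handling genes were lower (median -2.84). Gpnmb, a lysosomal glycoprotein of lipid-laden macrophages, measured -6.36, -0.10 and -5.78 in WT replicates 1, 2 and 4 against 6.17, 5.87 and 6.12. Only WT replicate 2 was well above background, and the difference was -10.13 (SE 1.19, adjusted p = 2.84e-05), or -8.99 without replicate 1 and -9.28 without replicate 4. Without replicate 2 no WT array was well above background, and Gpnmb was at least 1316-fold lower. The M1 mean was 5.14. Fabp5, a fatty acid carrier, was 28.4-fold lower, Lpl, the lipoprotein lipase, 17.3-fold, and Ctsk, the collagen-degrading cathepsin, at least 5.62-fold. Of 16 lysosome genes 14 were lower and none higher (median -2.01), with the lysosomal acid lipase Lipa 18.6-fold and cathepsin D (Ctsd) 10.4-fold lower. Of 14 glycolysis genes 12 were lower and none higher (median -1.30), among them Pgk1 (6.94-fold), Ldha (3.47-fold) and Gapdh (3.07-fold).

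Of 14 cholesterol synthesis genes 10 (71.4%, beside 28.1% of all genes) were lower and 1 higher (median -1.16). Srebf2, the factor that controls the pathway, was 13.7-fold lower by its brighter probe and -0.17 by the other. Of 15 tested cell cycle genes 10 (66.7%) were lower and 1 higher (median -0.95), with Rrm2 5.67-fold and Pcna 3.97-fold lower. Complement was mixed, with 6 of 12 genes (50%, beside 36.7% of all genes) higher, including Cfb (15.2-fold) and C4b (8.98-fold). Cfp and C3ar1 were lower. Of the sorted antigens, Itgam (CD11b) was 1.64-fold higher and Itgax (CD11c) 2.43-fold lower in WT kidney cells, with Itgam at 8.21, 7.45 and 7.51 against 7.07, 6.97 and 6.98. The call for Itgam was lost under quantile normalization (0.11, adjusted p = 0.492).

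**Figure D5:**
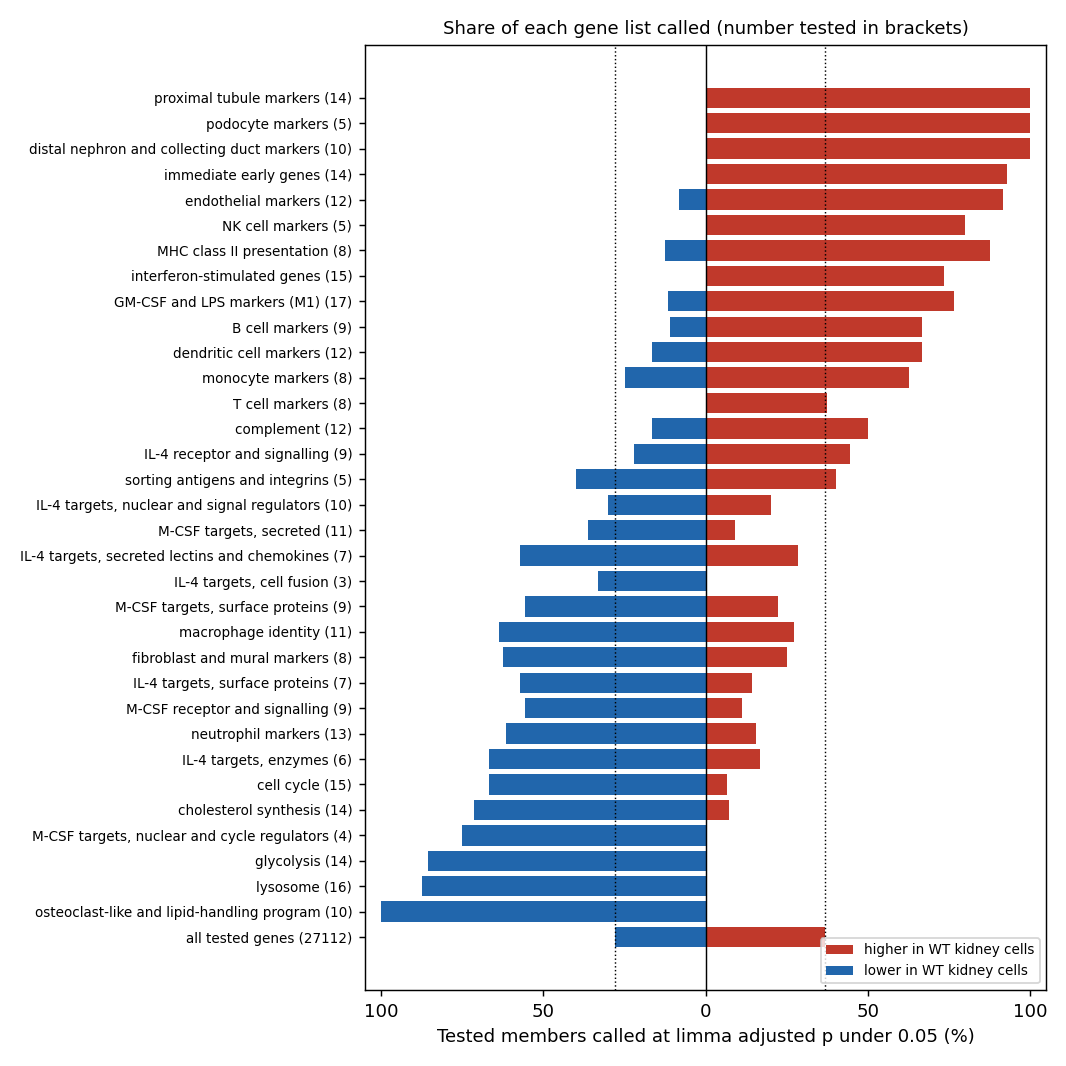
Share of the tested members of each gene list called higher (red, to the right) or lower (blue, to the left) in WT kidney cells than in M2 cells, in percent. Dotted lines mark the shares among all 27112 tested genes, 36.7% higher and 28.1% lower.

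Ranked by fitted differences, which for genes at background in a group are no measured size, the 12 genes with the largest positive differences included 7 genes known from nephron segments. Umod, the main protein of the thick ascending limb and of urine, was at least 774-fold higher, and the proximal tubule gene Kap differed by 9.28 (SE 0.55). With them came Ggt1, Dao, Cyp4b1, Cltrn and Fxyd2, genes of tubule cells. Cx3cr1, the fractalkine receptor of resident kidney myeloid cells, was the macrophage gene among them: it measured 4.38, 5.25 and 4.27 in WT kidney cells, was well above background on no M2 array and was at least 369-fold higher. Its 2 other probes gave 10.25 and 6.84, and it averaged 2.03 in op/op kidney cells and -3.93 in M1 cells. The remaining 4 were Sgk2, Sparcl1, Clic5 and Sfrp2. Among the 12 largest negative fitted differences, Gpnmb, Retnla, Atp6v0d2 and Arg1 stood with the neutrophil granule genes Ltf and Ngp and with Lox (106-fold), which crosslinks collagen, the BMP antagonist Grem1 (at least 71.0-fold) and the WNT agonist Rspo2 (at least 14.4-fold), genes of stromal cells. The last 3 were Rpl39l (at least 30.5-fold), Bex1 (117-fold) and Syt13 (61.5-fold, with 1 WT array well above background). The bounds of Rpl39l and Rspo2 lie below the measured folds of Cd36 (52.1-fold) and Chil3 (48.6-fold), which the fitted ranking left out.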

How the data were processed

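RNA of 3 WT kidney and 3 M2 samples, and of 6 others in the series, was amplified (Ovation PicoSL WTA System V2), labelled with Cy3 and hybridized to one-colour Agilent mouse arrays, per the labels. Spot intensity values (processed signal, background subtracted) came from the scanner software Agilent Feature Extraction 10.7.3.1, per the file headers. The authors' deposited value table holds log2 values that match the log2 scanner signals scaled to the 75th percentile (r = 1.0 on each array); it served as an alternative.

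From the intensities, log2 spots were averaged per probe, 32 probes with non-uniform spots left out, and the 75th percentile of each array subtracted. Probes were named by accession through RefSeq (27492), symbol (3544), synonym (403) or the name in the file (24210). Probe coordinates are mm9, as in the files. The brightest probe over 12 arrays stood for a gene. limma 3.58.1 (R 4.3.3) was fitted to all 12 arrays in 4 groups, with Benjamini-Hochberg adjustment over 27112 genes and calls under 0.05. No saturated spots were found. The number of arrays, 3 a group, limits the precision, and an exact permutation of 3 against 3 was not used.

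The compared groups and the 33 gene lists were chosen with earlier results of these data known. All members of the IL-4 and M-CSF lists could be named, up to 5 of each other list by smallest p, members at background throughout WT or M2, and the 12 largest differences each way (without clones, predicted genes or genes whose brightest 2 probes differed in sign). Nos2, Marco and Ctss were named outside this rule and were chosen after their values were seen. For 1 listed gene the values are not reported here, though it is part of the list counts. A replicate block was tried because WT and M2 samples share the numbers 2 and 4.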

Additional observations from a re-analysis of the deposited data

How the results depend on the processing

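Under 21 alternatives, 162 of the 211 named genes tested kept their direction and side of the threshold wherever they had a value (with the filter on all 6 arrays 155 had one), and 163 of the 181 called ones kept their call in all alternatives but a 2-fold minimum. With that minimum, 6408 genes were higher and 4656 lower. M-CSF targets called higher numbered 5 under quantile and under cyclic loess normalization and 6 with array weights, and 3 to 6 when leaving out 1 replicate in turn. With the mean of all probes of a gene, Csf1r (-0.85), Mitf (-1.14) and Eomes (0.65) changed direction, since their probes disagree. Leaving out 1 replicate gave 8618 to 11571 genes higher and 6712 to 7908 lower. Quantile normalization moved the median difference of all genes from 0.20 to 0.05 and cyclic loess to 0.08, so small differences depend on the scaling. With the slide as a random block (correlation 0.371) 6913 genes were higher and 5490 lower; no fit with slide as a fixed term can separate it from the groups. In that fit Stat6 had adjusted p = 0.167, Alox15 0.131, Ptgs1 0.0604, Il34 0.0634 and Mertk 0.0677. With the replicate block below, Stat6 (0.119), Alox15 (0.178) and Il34 (0.071) did not pass.

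The replicate block gave 9046 genes higher and 6944 lower. WT and M2 samples share only the numbers 2 and 4, and the deviations of same-numbered samples correlated at -0.04 and -0.29, so the numbers were not taken as pairs. Signal near background limits the values of Ccl22, Alox15 and the other genes given as bounds.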
